A study of Homo sapiens with 2 samples.

Results

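The genes described here are 10 genes of fetal growth and of its control by let-7 microRNAs: LIN28A, LIN28B, IGF2BP1, IGF2BP2, IGF2BP3, HMGA1, HMGA2, IGF2, H19 and DLK1. They were chosen for the embryonic origin of the cell line and matched by symbol to Ensembl identifiers, and all 10 were found among the 60683 genes of the count table. The RNA came from the line HEK293T, which derives from human embryonic kidney and carries the large T antigen of SV40, with a stable short hairpin knockdown of FKBP5, the gene of an HSP90-binding immunophilin. Total RNA was sequenced with directional libraries, and the 2 samples analysed here form 1 group, FKBP5 knockdown. Both samples share the cell line and the knockdown, and the labels give no treatment, no hairpin sequence and no statement that the cells were 1 clone or a pool. The scramble control cells that the extraction protocol mentions were not analysed here. The values are therefore levels in knockdown cells and differences between 2 libraries, and none is an effect of the knockdown. The labels do not describe the samples as separate cultures, so their spread, and p-values that compare them, may be technical.

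Many of these genes are joined by one circuit. The let-7 microRNAs repress growth genes in differentiated tissue, and the RNA-binding proteins LIN28A and LIN28B block the maturation of let-7 precursors, in part by binding a GGAG motif in the terminal loop. The IGF2BP proteins bind and stabilise messenger RNAs, the HMGA proteins are architectural chromatin proteins that bind the minor groove of AT-rich DNA, and IGF2, H19 and DLK1 are imprinted genes of fetal and placental growth. Several are high in the embryo, low in most adult tissue and high again in many tumours.

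The mature let-7 sequences show the part that the family shares. RefSeq lists 9 distinct mature 5′ arms of the let-7 and miR-98 family, each of 22 bases, and all 9 have the same seed, bases 2 to 8, in capitals below. Shown are let-7a, to which the others are compared, let-7e, whose single change is next to the seed, and let-7i and miR-98, which differ at more bases.
let-7a: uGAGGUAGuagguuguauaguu
let-7e: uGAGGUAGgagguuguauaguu
let-7i: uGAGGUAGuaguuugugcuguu
miR-98: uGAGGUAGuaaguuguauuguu
Against let-7a, counted from 1 at the 5′ end with the base of let-7a first, let-7e carries U9G, miR-98 carries G11A and A19U, and let-7i carries G12U, A17G, U18C and A19U. Of the other members, let-7c differs from let-7a at 1 base, let-7f at 1, and let-7b, let-7d and let-7g at 2 each. A message that pairs with 1 of these seeds pairs with all of them.

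The hairpins differ in the motif that LIN28 proteins are known to bind. Of the 11 family hairpins with both arms listed, 8 held GGAG between the arms (in capitals below, searched on the transcript strand) and 3 did not, those of let-7a-3, let-7b and miR-98. Of 51 other human hairpins with a region between the arms of the same length range, 23 to 36 bases, 17.6% held it. The hairpin of let-7f-2 had no 3′ arm listed and was not assessed. The 4 hairpins printed are a pair with the motif, let-7a-1 at chr9:94175957-94176036 on the plus strand and let-7g at chr3:52268278-52268361 on the minus strand, and a pair without it, let-7a-3 at chr22:46112749-46112822 and let-7b at chr22:46113686-46113768, both on the plus strand (RefSeq, GRCh38.p14).
let-7a-1: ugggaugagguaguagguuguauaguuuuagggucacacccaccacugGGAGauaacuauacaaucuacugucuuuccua
let-7g: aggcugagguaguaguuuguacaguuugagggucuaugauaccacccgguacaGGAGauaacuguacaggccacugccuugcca
let-7a-3: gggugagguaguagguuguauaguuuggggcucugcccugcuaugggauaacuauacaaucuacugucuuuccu
let-7b: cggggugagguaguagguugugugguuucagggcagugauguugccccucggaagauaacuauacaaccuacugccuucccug
A match of letters is a description of the sequence and not a measured binding site. The count table has 12 rows for the family's precursors, of which 1, MIR98, held any count (0 in sample 1 and 1 in sample 2). This assay does not measure mature microRNAs.

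The 3′ untranslated regions of the members hold the matching letters. A match was counted as an 8mer (CTACCTCA), as a 7mer-m8 (CTACCTC without the final A) or as a 7mer-A1 (TACCTCA without the leading C), each place once under its longest form and on the transcript strand only. Of the 9 members with an annotated 3′ untranslated region, 7 had at least 1 match, while 13.9% of 19128 protein-coding genes in GENCODE 29 had one. Untranslated regions of these members are long, however: the median over protein-coding genes was 876 bases, and the members' regions ran from 1347 bases in HMGA1 to 6206 in IGF2BP1. Each member was therefore set beside regions of similar length, from 20% shorter to 25% longer than its own. The members were listed in part as let-7-controlled genes, so neither comparison gives an independent count of matches.

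HMGA2 stood at the top of this comparison. Its region of 3003 bases had 7 matches (1 8mer, 3 7mer-m8 and 3 7mer-A1), the first 21 bases after the stop codon. Of 2029 regions of similar length, 25.8% had any match and 0% had as many as 7. Over all protein-coding genes 2 had at least 7, HMGA2 and TRIM71, which encodes a let-7-regulated ubiquitin ligase of early embryos and had 8. LIN28B had 5 matches in 4549 bases, 2 of them 8mers, and 0.0767% of 1304 similar regions had as many. IGF2BP1 had 5 matches in 6206 bases, 3 of them 8mers, and 0.41% of 731 similar regions had as many. At least 5 matches were found in 10 protein-coding genes, and these 3 members were among them.

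The remaining members with matches were less marked. IGF2BP2 had 2 matches in 1792 bases, which lay 1304 and 1320 bases after the stop codon, and 1.66% of similar regions had as many. IGF2BP3 had 1 8mer and 19.5% of similar regions had any match. LIN28A had 1 8mer beside 28.5% of similar regions with any match, and HMGA1 had 1 7mer-m8 beside 14.6%. IGF2 and DLK1 had no match in 3875 and 3328 bases, as did the whole H19 transcript of 2348 bases. For the members with 1 match, and for IGF2 and DLK1, the count of matches of any kind was therefore a common one for a region of that length. An 8mer was less common than any match, at 3.26% of all protein-coding genes, and its share in similar regions was not computed. The windows below (GRCh38, GENCODE 29) show the first 8mer of each member, or the 7mer-m8 of HMGA1, with the match in capitals. They lie at chr1:26427352-26427381 for LIN28A, chr6:105078816-105078845 for LIN28B, chr17:49051065-49051094 for IGF2BP1, chr6:34245833-34245861 for HMGA1 and chr12:65963302-65963331 for HMGA2, all on the plus strand, and at chr3:185644209-185644238 for IGF2BP2 and chr7:23311784-23311813 for IGF2BP3, on the minus strand.
LIN28A: agcctattgaaCTACCTCAtttttgccaat
LIN28B: ggttgcaaagtCTACCTCAtgcaagtatag
IGF2BP1: tgcgaagtaaaCTACCTCAaggtatgaagt
IGF2BP2: cacagaagaagCTACCTCAggtgtttttac
IGF2BP3: tttttactcaaCTACCTCAggtattcagta
HMGA1: ctgttcacaaaCTACCTCtggacagttgt
HMGA2: acgttcgatttCTACCTCAgcagcagttgg

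**Figure D1:**
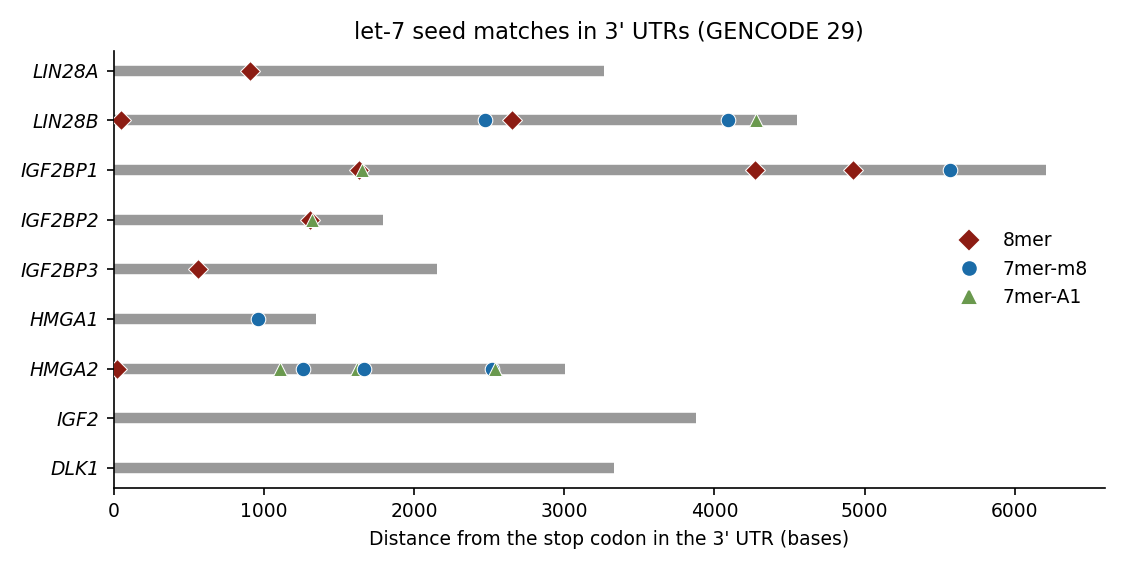
Positions of let-7 seed matches (symbols by kind) along the 3′ untranslated region of the 9 members that have one (grey bars, in bases from the stop codon). HMGA2 carries 7 matches, LIN28B and IGF2BP1 carry 5 each, and IGF2 and DLK1 carry none.

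By CPM, which is not scaled by length, the 10 genes fell into a high and a near-silent group. Per kilobase of exons, HMGA2 and IGF2BP3 of the high group lay above only 56.55% and 54.98% of the genes tested that have a length. LIN28B, the 3 IGF2BP genes and both HMGA genes lay between 46.1 and 597 CPM, counts scaled to the size of the library, in each sample. LIN28A, IGF2, H19 and DLK1 lay at or below 1.06 CPM in each. The 6 high genes had a mean of at least 1 CPM, the minimum set for testing, and the 4 low ones did not. Sample 1 held 9997706 counts and sample 2 held 21284648, so that 1 count was worth 0.0964 and 0.0458 CPM. The level of 3 counts, used as the floor, was 0.289 CPM in sample 1 and 0.137 CPM in sample 2. Intervals given with levels are 95% exact Poisson intervals, and like the floors they cover counting error only, since no molecular identifiers are stated.

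**Figure D2:**
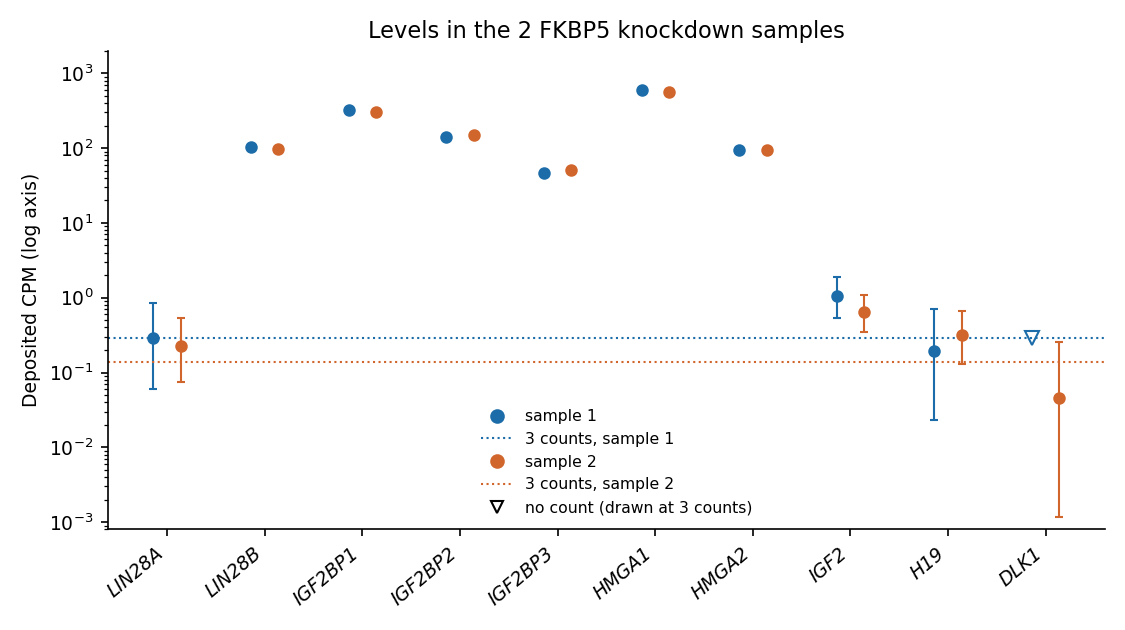
Deposited CPM (log axis) of each member in sample 1 (blue) and sample 2 (orange) with 95% Poisson intervals, which are narrower than the points for the high genes. Dotted lines mark the level of 3 counts; 6 genes lie at 46.1 CPM or more, and LIN28A, IGF2, H19 and DLK1 lie at or below 1.06 CPM.

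Of the LIN28 paralogs, LIN28B carried nearly all reads. LIN28B (ENSG00000187772, chr6:104936616-105083332, plus strand) encodes the paralog known to hold let-7 precursors mainly in the nucleus. It had 1082 counts in sample 1 and 2150 in sample 2, or 104 CPM (interval 98.2 to 111) and 98.4 CPM (94.3 to 103). Its mean was 101 ± 4.18 CPM (SD, n = 2), above 85.5% of the genes tested. LIN28A (ENSG00000131914, chr1:26410778-26429722, plus strand), the paralog known from pluripotent stem cells as a reprogramming factor, had 3 and 5 counts. Its level was 0.289 CPM (0.0596 to 0.845) and 0.229 CPM (0.0743 to 0.534). The level of LIN28A was at the floor in sample 1 and above it in sample 2. LIN28B made up 99.7% of the family's 1085 counts in sample 1 (Wilson 95% interval 99.2% to 99.9%) and 99.8% of 2155 in sample 2 (99.5% to 99.9%). Scaled by exon length, its share was 99.6% and 99.7%. The antisense gene LIN28B-AS1, which overlaps 1.12% of the exonic bases of LIN28B, had 2 and 10 counts.

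All 3 IGF2BP genes were expressed, with IGF2BP1 and IGF2BP2 at similar levels per length and IGF2BP3 lowest. IGF2BP1 (ENSG00000159217, chr17:48997412-49055650, plus strand), the zipcode-binding protein that escorts beta-actin messenger RNA, had 3328 and 6571 counts. Its level was 321 CPM (310 to 332) in sample 1 and 301 CPM (293 to 308) in sample 2, with a mean of 311 ± 14.2 CPM (SD, n = 2). The lower sample of IGF2BP1 was sample 2, and its 2 intervals did not overlap. IGF2BP2 (ENSG00000073792, chr3:185643739-185825056, minus strand), the paralog that adult tissues also express, had 1468 and 3313 counts. Its level was 141 CPM (134 to 149) and 152 CPM (146 to 157), a mean of 147 ± 7.15 CPM (SD, n = 2). For IGF2BP2 sample 2 was the higher one, with overlapping intervals.

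IGF2BP3 (ENSG00000136231, chr7:23310209-23470467, minus strand), an oncofetal protein used as a tumour marker in pathology, had 478 and 1117 counts. Its level was 46.1 CPM (42.0 to 50.4) and 51.1 CPM (48.2 to 54.2), a mean of 48.6 ± 3.57 CPM (SD, n = 2), again higher in sample 2 with overlapping intervals. Of its exonic bases, 17.9% lie opposite MALSU1 on the other strand, a gene with 448 and 810 counts. The kit was directional, but the sources used here do not state the strand setting of the counting, so a part of these counts could belong to MALSU1, which was not tested. Of the 50-base stretches of IGF2BP2, 93.5% occur in no other gene's transcripts, and of those of IGF2BP3, 94.9%.

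Within the family, length mattered for the shares. Of the raw counts IGF2BP1 held 63.1% and 59.7%, with Wilson intervals of 61.8% to 64.4% in sample 1 and 58.8% to 60.6% in the other. Per kilobase of all annotated exons, IGF2BP1 made up 49.9% and 46.5%, IGF2BP2 42.4% and 45.1%, and IGF2BP3 7.68% and 8.45%. IGF2BP1 was 1.18-fold above IGF2BP2 in sample 1 and 1.03-fold above it in sample 2 on this scale. With the longest transcript as length the ratio was 1.01 and 0.884, so the order of IGF2BP1 and IGF2BP2 turned with the choice of length. IGF2BP2 exceeded IGF2BP3 by 5.52-fold and 5.33-fold per kilobase of exons, and by 3.54-fold and 3.42-fold per kilobase of the longest transcript.

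HMGA1 was the most abundant member. HMGA1 (ENSG00000137309, chr6:34236873-34246231, plus strand) had 6197 and 12172 counts, or 597 CPM (582 to 612) in sample 1 and 557 CPM (547 to 567) in sample 2. Its mean of 577 ± 28.5 CPM (SD, n = 2) was above 99.2% of the genes tested. The intervals of the 2 samples did not overlap, and sample 2 was lower. Of its 50-base stretches 92.4% were found in no other gene, so a small part of its reads could fit more than 1 gene. The genes that most often shared the other stretches were C2orf81 and the pseudogenes HMGA1P1 and HMGA1P2. HMGA1P1 had no count and HMGA1P2 had 7 and 6.

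HMGA2 (ENSG00000149948, chr12:65824131-65966295, plus strand), a classic let-7 target and regulator of body size, had 979 and 2029 counts. It lay at 94.4 CPM (88.5 to 100.5) and 92.8 CPM (88.8 to 97.0), with a mean of 93.6 ± 1.07 CPM (SD, n = 2), the smallest relative spread of the 10 genes. Per kilobase of exons HMGA1 was 41.9-fold above HMGA2 in sample 1 and 39.7-fold in sample 2. GENCODE 29 gives HMGA2 15403 bases of exons over all its transcripts, and with the longest transcript, of 8094 bases, the ratio was 23.7 and 22.5. HMGA1 held 97.7% and 97.5% of the pair's reads per kilobase of exons.

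The imprinted members IGF2, H19 and DLK1 were near the floor. IGF2 (ENSG00000167244, chr11:2129112-2149603, minus strand), the fetal insulin-like growth factor and a known IGF2BP-bound message, had 11 and 14 counts. These gave 1.06 CPM (0.529 to 1.9) and 0.641 CPM (0.35 to 1.07), above the floor in both samples with overlapping intervals. Of the exonic bases of IGF2, 73.7% lie in other genes annotated on the same strand (INS-IGF2, AC132217.1 and a duplicate IGF2 entry), and 27.9% of the 50-base stretches are unique to it. Those 3 genes had no count in either sample. Reads that fit several of them may have been left uncounted, which was not tested, so the level of IGF2 is a value for the counted reads only. Set against the 1835 exonic bases outside the overlaps, the level was 0.578 and 0.349 CPM per kilobase, in place of 0.152 and 0.0918.

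H19 (ENSG00000130600, chr11:1995176-2001470, minus strand), the non-coding RNA expressed from the maternal copy next to IGF2 and known to bind let-7, had 2 and 7 counts. It lay at 0.193 CPM (0.0233 to 0.696) and 0.32 CPM (0.129 to 0.66), under the floor in sample 1. DLK1 (ENSG00000185559, chr14:100725705-100738224, plus strand), a membrane ligand that inhibits adipocyte differentiation, had 0 counts in sample 1, where the floor of 3 counts is 0.289 CPM, and 1 count in sample 2. All of the 50-base stretches of DLK1 (100%) are found in no other gene. Lower RNA per cell and fewer expressing cells cannot be told apart in these bulk samples.

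Ordered by CPM per kilobase of exons, HMGA1 came first with 257 in sample 1 and 239 in sample 2. IGF2BP1 followed with 35.2 and 33.0, IGF2BP2 with 29.9 and 32.0 and LIN28B with 17.4 and 16.4. HMGA2 had 6.13 and 6.03 and IGF2BP3 had 5.41 and 6.01, so these neighbours differed by 1.06-fold in their means. A step of 46.9-fold separated IGF2BP3 from IGF2, and its size rested on the choice of length. With the longest transcript the step was 75.1-fold. Over exonic bases outside same-strand overlaps it was smaller, with means of 5.71 CPM per kilobase for IGF2BP3 and 0.463 for IGF2. Per kilobase of exons, both samples did not separate IGF2 from H19 (0.0665 and 0.111) or H19 from LIN28A (0.0721 and 0.0571), and DLK1 was last. Of the genes tested that have a length in the annotation, 99.5% lay below HMGA1 per kilobase, 92.0% below IGF2BP1, 90.9% below IGF2BP2, 81.7% below LIN28B, 56.5% below HMGA2 and 55.0% below IGF2BP3. The place of HMGA2 rested on its length: over the 4473 bases of the transcript whose 3′ untranslated region is described above, its mean level was 20.9 CPM per kilobase and stood above that of LIN28B, 18.4.

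**Figure D3:**
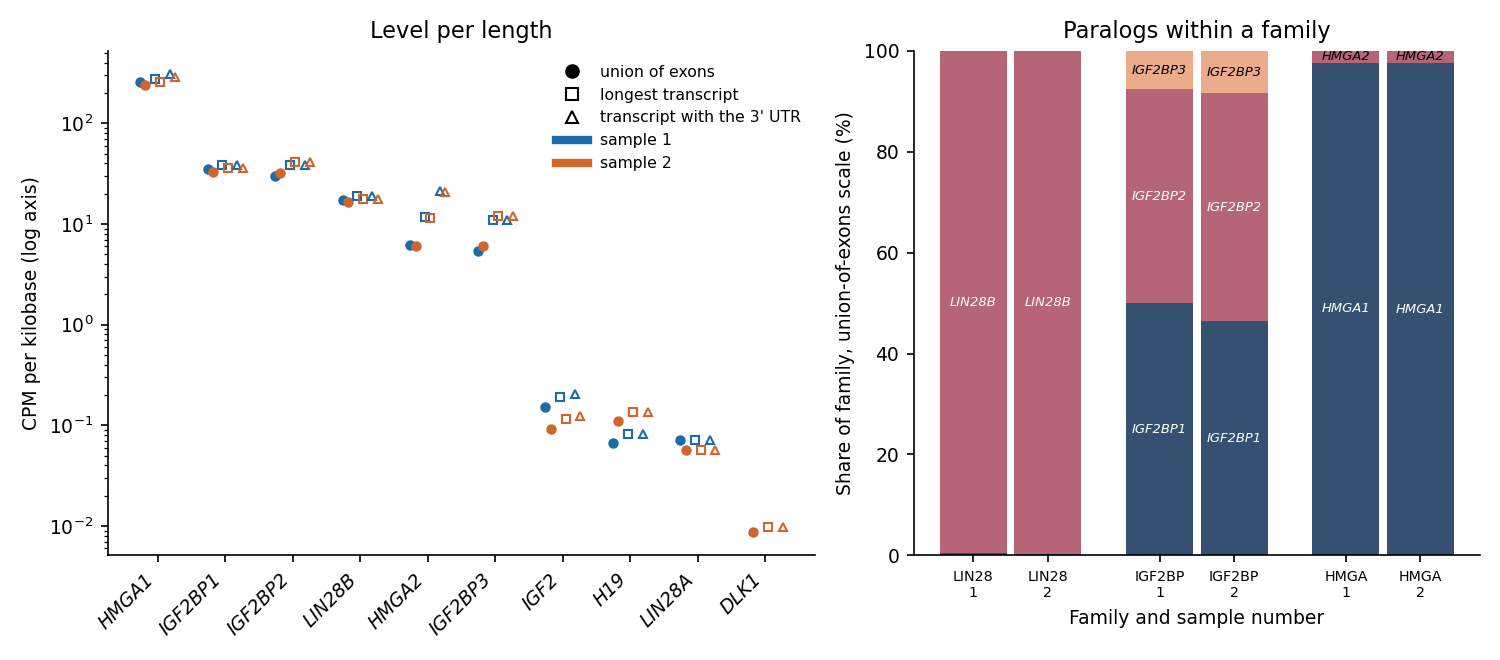
Left, CPM per kilobase (log axis) of each member in both samples under 3 choices of length, with DLK1 absent in sample 1 where it had no count; right, share of each paralog in its family per kilobase of exons (%). HMGA1 leads under each length, LIN28A and LIN28B are the most unequal pair, and of the 6 high genes HMGA2 moves most between the 3 lengths.

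The libraries were then compared gene by gene, which asks how far the members vary between samples with the same label. Counts were tested with a 2-sided exact binomial test against the libraries' depths, with Benjamini-Hochberg adjustment over 15530 genes and a threshold of 0.05. This test compares 2 libraries and not conditions. It allows for counting error only, while the libraries differed by more, with a chi-square of 4.68 per degree of freedom over the genes tested. Its p-values can therefore be too small for the spread between samples with the same label. HMGA1 and IGF2BP1 passed, both lower in sample 2, and LIN28B, IGF2BP2, IGF2BP3 and HMGA2 did not, so that 2 of the 6 members tested passed. Over all genes tested 8.97% passed, 4.41% higher in sample 2 and 4.56% lower. Among the 4861 genes tested at or above the mean CPM of IGF2BP3, the lowest of the 6, 19.03% passed.

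HMGA1 had a log2 ratio of CPM + 1, sample 2 over sample 1, of -0.10 (a change of -6.75%, exact binomial adjusted p = 0.000376). IGF2BP1 had a log2 ratio of -0.09 (a change of -6.26%, exact binomial adjusted p = 0.033). The call of HMGA1 held under the 6 other scalings and filters, with adjusted p from 2.0e-05 to 0.00437, and that of IGF2BP1 did not hold under 3 of them, with adjusted p from 0.0084 to 0.0949 over the 6. With DESeq2 size factors the adjusted p of IGF2BP1 was 0.0949, with a minimum of 0.1 CPM it was 0.0559 and with no minimum it was 0.086. The share of genes passing that were higher in sample 2 also moved with the scaling. It was 49.2% with the deposited scaling, 60.9% with DESeq2 size factors, 41.1% with TMM and 39.2% with column totals.

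The other 4 members did not pass, and their ratios ran from near 0 in HMGA2 to the highest of the 6 in IGF2BP3. IGF2BP3 had a log2 ratio of 0.15 (exact binomial adjusted p = 0.25) and IGF2BP2 one of 0.10 (adjusted p = 0.162). LIN28B had -0.08 (adjusted p = 0.378) and HMGA2 -0.02 (adjusted p = 0.885). Over the 4861 genes at or above the level of IGF2BP3 the log2 ratios had an SD of 0.12, so 5 of the 6 members lay within 1 such SD of 0 and IGF2BP3 lay outside it. The median log2 ratio was -0.05 over the 6 members tested and 0.01 over all genes tested. For the 4 members below the minimum, the test without a minimum gave unadjusted exact binomial p-values of 0.718 for LIN28A, 0.206 for IGF2, 0.728 for H19 and 1.0 for DLK1, at counts that could show only large differences.

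**Figure D4:**
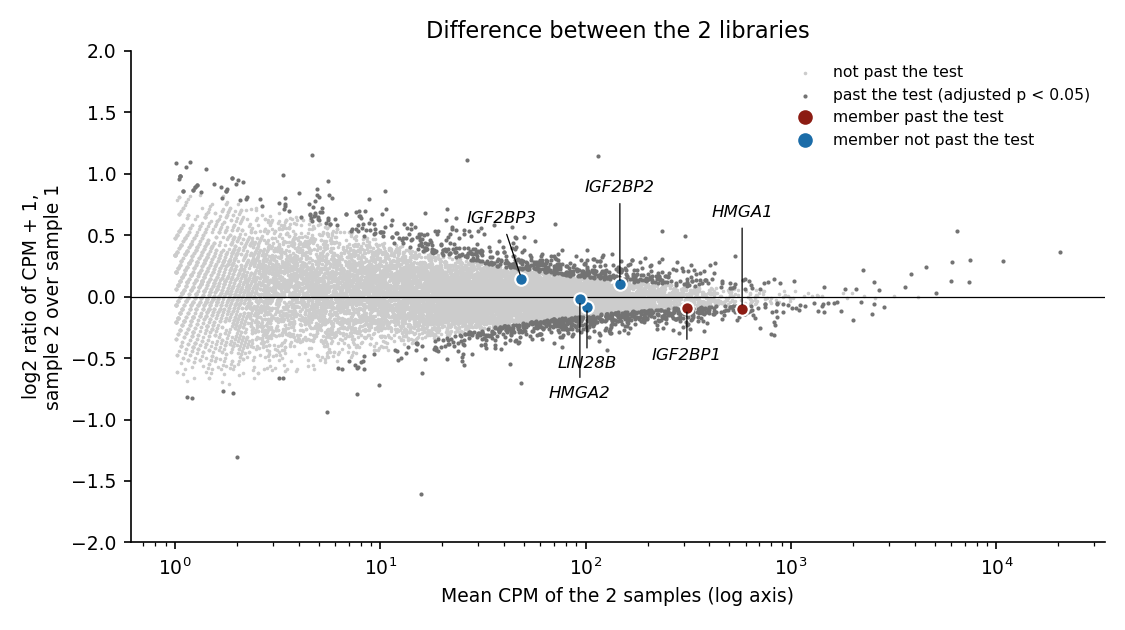
Log2 ratio of CPM + 1, sample 2 over sample 1, against the mean CPM (log axis) for the 15530 genes tested; dark grey points passed the exact binomial test and the 6 members tested are named. HMGA1 and IGF2BP1 passed at -0.10 and -0.09, inside the cloud of genes of their level.

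The machinery that makes and destroys let-7 was expressed throughout. All 31 listed genes of let-7 maturation and decay had a mean of at least 1 CPM, with a median of 73.9 CPM. The highest were HNRNPA1 (1152 and 1156 CPM), an RNA-binding protein known to act on the let-7a-1 precursor, DDX17 (781 and 865), a helicase of the DROSHA complex, and RAN (651 and 619), the GTPase that powers nuclear export. DROSHA lay at 166 and 174 CPM and DICER1, the enzyme that cuts the hairpin and itself a let-7 target, at 117 and 122. TUT4 and TUT7, which add uridines to precursors bound by LIN28A, lay at 89.2 and 96.2 and at 20.7 and 22.3 CPM. DIS3L2, the nuclease that degrades them, lay at 39.6 and 41.5. Between the libraries 1 gene of the 31 passed higher, DDX17, and 3 passed lower, RAN, KHSRP and TRIM25. In all 12.9% passed, beside 8.97% of all genes tested and 19.03% of those at or above the mean CPM of IGF2BP3. The share passing thus differed with level, which also bears on the lists below. The count was 6 with column totals or TMM and 3 with DESeq2 size factors, where RAN did not pass.

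Genes that host let-7 hairpins differed widely in level. The hairpins of miR-98 and let-7f-2 lie within HUWE1, a ubiquitin ligase at 599 and 654 CPM, and that of let-7g lies within WDR82, at 204 and 203 CPM. SPACA6, which spans let-7e, lay at 14.5 and 13.7 CPM. MIRLET7BHG, which spans the hairpins of let-7a-3 and let-7b, had 43 and 60 counts, or 4.14 and 2.75 CPM. Of the 3 hairpins without GGAG, 1 thus lies within a gene of high CPM and the others within a gene of low CPM. Hosts of hairpins with GGAG were split as well: MIRLET7IHG, which spans let-7i, lay at 2.31 and 3.43 CPM, far below WDR82. A gene that spans a hairpin need not keep it in its message, and a host level is not a microRNA level. Of 8 listed hosts, 7 reached 1 CPM, and 1 of the 7 tested (14.3%, beside 8.97% of all genes) passed between libraries, HUWE1, higher in sample 2.

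Other known let-7 targets were nearly all expressed. Of 35, 34 had a mean of at least 1 CPM, with a median of 49.1 CPM beside 23.5 over all genes tested. CPM is not scaled by length, so these medians do not compare levels per length, which were not computed for this list. EIF4G2, a translation initiation factor, was highest (622 and 566 CPM), followed by NAP1L1, a histone chaperone (484 and 473), and ARID3B, a DNA-binding protein (191 and 192). TRIM71, the gene with the most seed matches, lay at 24.2 and 25.5 CPM. Of the 34 tested, 1 passed (2.94%, beside 8.97% of all genes), EIF4G2, lower in sample 2. A let-7 seed match was found in 33 of the 35 (94.3%), which were listed as known targets and so give no independent count.

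The ligands and receptors of the insulin-like growth factor axis were unequal. IGF1 had 1 and 4 counts, and INS and IGFBP1 had none. With IGF2 at 11 and 14 counts, no ligand of the axis reached a mean of 1 CPM. Reads of IGF2 may have been left uncounted, as described above, so its place below 1 CPM holds for the counted reads only. Receptors and adaptors were expressed: IGF1R, the signalling receptor and a let-7 target, lay at 146 and 160 CPM, and IGF2R, the receptor that clears IGF2, at 290 and 304. IRS4, an insulin receptor substrate first described in these kidney cells, was the highest at 513 and 552 CPM, and IGFBP5, a binding protein, lay at 188 and 207. Of 23 genes 17 reached 1 CPM. IRS4, IGFBP5 and IGF1R passed between libraries, all higher in sample 2, or 17.6% of those tested beside 8.97% of all genes. With column totals or TMM 2 passed, and IGF1R did not.

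Many imprinted genes besides the members were low in counted reads as well. Overlaps with other genes were not examined for this list. Reads left uncounted, as may hold for IGF2, could lower some of these values, which was not tested. The list of 34 holds 29 imprinted genes and 5 regulators of imprints (CTCF, CTCFL, ZFP57, ZNF445 and TRIM28). Of the 34, 16 reached 1 CPM and the median was 0.835 CPM, and of the 29, 13 did, with a median of 0.701 CPM. Neighbours of the members had few counts too. MEG3, the non-coding partner of DLK1 on chromosome 14, had 1 and 7 counts, and IGF2-AS, INS-IGF2 and MIR675, the microRNA inside H19, had none. INS-IGF2 shares exonic bases with IGF2, and MIR675 shares them with H19. How reads of shared bases were counted is not stated, so their lack of counts need not mean a low level. At the far side of the IGF2 domain on chromosome 11, CDKN1C, a growth-restraining cell cycle inhibitor, lay at 9.73 and 13.5 CPM and SLC22A18, a transporter, at 6.17 and 10.6. Both passed between libraries, higher in sample 2 (exact binomial adjusted p = 0.0434 and 0.00209). With TRIM28, 3 of the 16 tested passed (18.8%, beside 8.97% of all genes), and with column totals or TMM CDKN1C did not. The highest of the list were GNAS (1348 and 1356 CPM), TRIM28 (1126 and 1072, lower in sample 2), a corepressor that maintains imprints, and IGF2R.

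Messages of proteins that work with the members' products were abundant. Of 26 IGF2BP partners and m6A genes all 26 reached 1 CPM, with a median of 98.6 CPM. YBX1 (1309 and 1262 CPM), HNRNPU (900 and 801) and PABPC1 (710 and 765), which are found in IGF2BP particles, were the highest. Of the 26, 1 passed higher in sample 2, PABPC1, and 4 passed lower, YBX1, HNRNPU, DHX9 and ELAVL1. The writer METTL3 lay at 102 and 100.2 CPM and its partner METTL14 at 21.2 and 20.2. Of 16 other high mobility group genes 15 reached 1 CPM, led by SSRP1 (340 and 321 CPM), HMGB1 (351 and 309) and HMGN1 (315 and 343). HMGB1 and HMGN2 passed lower in sample 2 and HMGN1 and HMG20B higher. The shares passing were 5 of 26 (19.2%) and 4 of 15 (26.7%), beside 8.97% of all genes tested and 19.03% of those at or above the level of IGF2BP3.

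Transcripts that partner the members were scarce in the counted reads. Of the 19 listed that are in the table, 1 reached 1 CPM, DLK2, the paralog of DLK1, at 14.6 and 14.4 CPM. The pseudogenes HMGA1P4 (0.867 and 0.961 CPM) and HMGA1P3 (0.578 and 0.824) came next. No count was found in either sample for 7: IGF2-AS, INS-IGF2, MIR675, MIR1908, HMGA1P1, HMGA1P5 and HMGA1P6. HMGA2-AS1, antisense to HMGA2, had 3 and 5 counts.

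**Figure D5:**
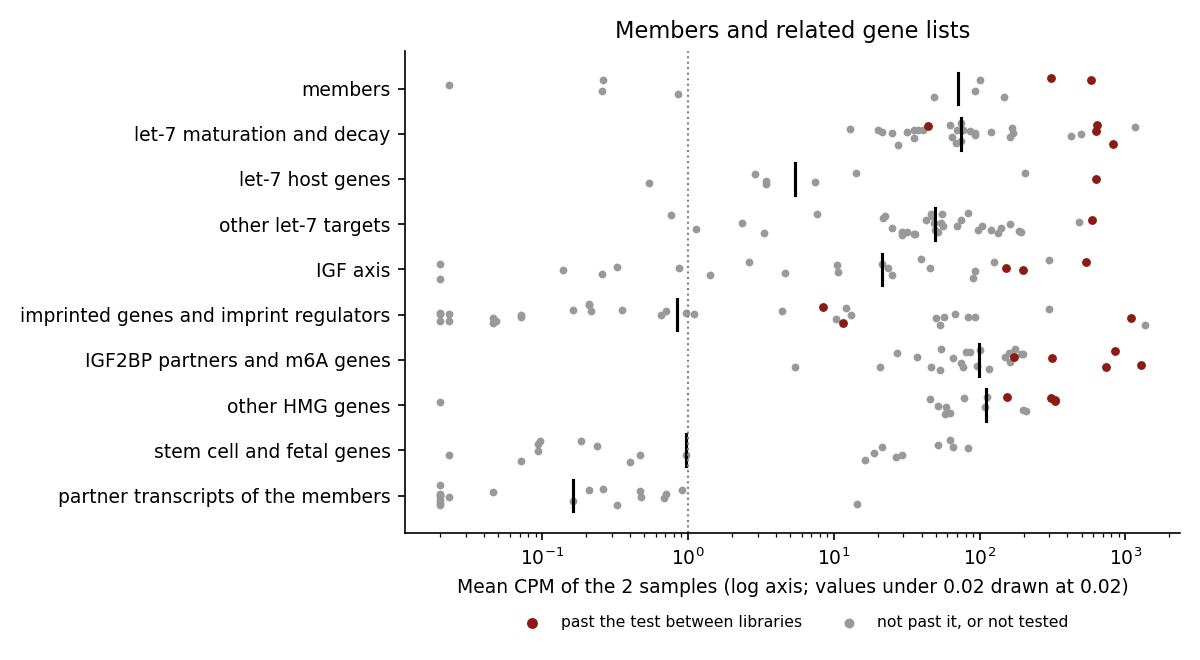
Mean CPM (log axis) of each gene in the members and the 9 related lists, with the list median as a bar, the testing minimum of 1 CPM as a dotted line and genes past the test between libraries in red. The machinery of let-7, its known targets and the IGF2BP partners lie almost wholly above the line, and 18 of the 34 imprinted genes and imprint regulators lie below it.

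The labels were checked against the targeted gene and the cell markers. FKBP5 (ENSG00000096060) had 41 and 77 counts, or 3.95 and 3.52 CPM, a mean of 3.74 ± 0.303 (SD, n = 2), above 19.7% of the genes tested; without control cells this level says nothing about the depth of the knockdown. All 10 HEK293T-like markers reached 1 CPM. Of 7 fibroblast markers 3 did, led by COL1A1 (54.0 and 65.4 CPM). The summed level of the fibroblast markers was 62.9 and 72.8 CPM. COL1A1 passed the test between libraries, higher in sample 2, while COL3A1 (5.98 and 4.71 CPM) and PDGFRB (1.54 and 1.37) did not pass and had lower values there. None of 6 hepatic or 6 placental markers reached 1 CPM, and the highest mean among these was that of CGA, 0.932 CPM. The part of these cell types in the members' levels was not tested. The counts of the 2 libraries differed beyond counting noise, with a chi-square of 4.68 per degree of freedom.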

How the data were processed

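The authors deposited a table of raw gene counts and a file of CPM for each sample. Reads were handled with STAR 2.7.7a, edgeR and GRCh38, per the submitters' processing notes; for the program that counted reads, its strand setting and the gene annotation, names were not given in the sources used here. Deposited values in CPM equalled counts times 1 constant per library (100% whole reads, tolerance 1e-06), and the library size behind them was 3.78% and 2.68% above the column totals. The CPM files leave out 16404 genes without a count.

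Members and lists (242 genes, 14 lists) were chosen with earlier results of these data known. Symbols were found for 99.5% of identifiers, and 3 list names matched none. Levels are deposited CPM, with mean ± SD. Lengths, overlaps and 3′ untranslated regions came from GENCODE 29, in which 96.4% of identifiers were found, and microRNAs from RefSeq. Counts were tested by a 2-sided exact binomial test, with Benjamini-Hochberg adjustment over the genes whose mean reached 1 CPM. The named genes were all members, FKBP5, the 3 highest of each list, and list genes past the test with a CPM ratio of at least 1.25; the others were chosen after their values were seen. The blood marker list is not reported here. The test was checked on simulated counts that held counting error only, so the check does not cover the wider spread between these 2 libraries. Alternatives were other scalings (column totals, TMM of edgeR 4.0.16, DESeq2 1.42.0 size factors), minimums, pseudocounts and lengths, and leaving out each sample; 2 choices of length, and a count of the imprinted list without regulators of imprints, were added after the data were seen. No model across replicates was fitted, since both samples form 1 group. Software was R 4.3.3 and Python 3.11.15 (scipy 1.17.1 for the tests and intervals, statsmodels 0.14.6, pandas 2.3.3, numpy 2.4.6, matplotlib 3.10.9).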

Additional observations from a re-analysis of the deposited data

How the results depend on the processing

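No paired analysis was possible because the samples form 1 group. The log2 ratios of the 6 members tested kept their sign under the scalings, filters and pseudocounts run, while the order of IGF2BP1 and IGF2BP2 per length turned with the longest transcript and the balance of calls over all genes turned with the scaling. The number of members past the test was 2, and 1 with DESeq2 size factors, with a minimum of 0.1 CPM and with no minimum; IGF2BP1 was the call lost each time. Genes past the test over the whole table numbered from 972 with no minimum to 1483 with column totals, beside 1393.

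Shares within a family moved with length. Without length scaling they were 0.254% for LIN28A, 99.75% for LIN28B, 61.4% for IGF2BP1, 28.98% for IGF2BP2, 9.61% for IGF2BP3, 86.0% for HMGA1 and 13.97% for HMGA2. With the longest transcript they were 42.3% for IGF2BP1, 12.9% for IGF2BP3, 95.8% for HMGA1 and 4.15% for HMGA2. With the transcript that gives the 3′ untranslated region they were 42.3%, 12.9%, 93.5% and 6.51%. At a minimum of 5 CPM 4 let-7 host genes were counted in place of 7, and at 0.5 CPM 4 partner transcripts in place of 1.

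Leaving out a sample gives the value of the other, and the order of IGF2, H19 and LIN28A turned with it. Depth limits LIN28A, IGF2, H19 and DLK1, at 14 counts or fewer in each library. With no controls, no separate cultures stated and 1 group, no spread between cultures is known.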

Other observations

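Among genes of pluripotent stem cells and fetal tissue outside the members, levels were split. DNMT3B, a DNA methyltransferase of early embryos, lay at 82.4 CPM in sample 1 and 83.2 in sample 2. TPBG, an oncofetal surface glycoprotein, lay at 64.5 and 67.8 CPM, and SOX2, a pluripotency and neural factor, at 64.0 and 60.6. SALL4, a fetal zinc finger factor with 1 let-7 8mer in its 3′ untranslated region, lay at 29.01 and 29.33 CPM, and GPC3, a fetal proteoglycan known as a liver tumour marker, at 26.0 and 27.5. POU5F1 and NANOG, the core factors of pluripotency, had 4 and 12 counts and 5 and 7 counts. AFP, the fetal serum protein of liver and yolk sac, had 2 counts in sample 1 and none in sample 2. In all, 9 of 19 genes of the list reached 1 CPM. Of these 9, 0 passed the exact binomial test between libraries after adjustment, beside 8.97% of all genes tested. In a list of 9 genes, a count of 0 is near that share. An unadjusted p under 0.05 was found for 1 of the 9. LIN28B was high in cells in which LIN28A, POU5F1 and NANOG were each at 12 counts or fewer. The genes named here other than DNMT3B, TPBG and SOX2 were chosen after their values were seen.

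The distance between seed matches within a member also varied. In IGF2BP1 the first pair lay 1632 and 1651 bases after the stop codon, in IGF2BP2 the only pair lay at 1304 and 1320, and in HMGA2 the last pair lay at 2521 and 2541, while the 5 matches of LIN28B, at 44, 2471, 2653, 4092 and 4277, were spread out. These are positions in the annotated sequence only.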
